A study of Mus musculus with 6 samples.

Results

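The brightest RefSeq noncoding RNA probes on arrays of endothelial cells sorted from the mouse small intestine were compared between lymphatic endothelial cells (LECs) and vascular endothelial cells (VECs), the cells that line blood vessels. Of 2477 probes designed against a RefSeq noncoding transcript, 150 were chosen by the highest mean signal over the 6 arrays. The 6 whose gene also has a protein-coding RefSeq transcript (Sfpq, Etfb, Hnrnpa1, Snrnp70, Bmp1 and Sec14l1) were left out, which gave 144 probes for 134 genes. The mean used for this choice counts LECs and VECs alike, so it fixed which RNAs were bright and did not use the difference between the groups. Brightness is therefore given as a description, and the difference was tested. The dimmest probes inside the choice, those of Gm6524, Gm6578 and A330009N23Rik, had means of 1.65, 1.60 and 1.58 on the log2 scale described below, and the first ones outside, those of Snhg20, Hoxb5os and Snhg3, had means of 1.57, 1.57 and 1.51.

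Both populations came from small intestine of female mice and were sorted as cells negative for the leukocyte antigen CD45 and positive for the endothelial antigen CD31. LECs carried CD90 and VECs did not. No treatment or genetic change was given for either group, and strain and age of these animals were not given in the sources used here. There were 3 arrays per group, VEC replicates 2, 3 and 4 and LEC replicates 6, 7 and 8, each from at most 10000 sorted cells. Groups were taken from sample titles and source names, since the free-text description calls the LEC samples VECs.

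Noncoding RNAs are transcripts that act without being read into a long protein. Small structural RNAs form the core of the ribosome, the spliceosome and RNA-processing enzymes. Small nucleolar RNAs (snoRNAs) guide chemical marks on ribosomal RNA, and many are cut from the introns of host genes whose spliced product has no long reading frame. Long noncoding RNAs of imprinted loci are made from only the maternal or the paternal chromosome and can silence genes nearby. Transcribed pseudogenes are copies of coding genes that no longer encode the full protein. Their RNA can be close in sequence to that of the gene they came from.

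Signals were read as log2 intensity after subtraction of the 75th percentile of each array, so that 0 is that percentile and 1 unit is a 2-fold step. The number of arrays, 3 per group, limits the precision. No spot was saturated, and between 30933 and 35513 probes per array were well above background, among them all 144 noncoding probes on all 6 arrays. The markers of the sort went the way of the labels. All 7 lymphatic markers were higher in LECs (summed linear level 1297 to 1335, against 2.71 to 3.37 in VECs, as multiples of the 75th percentile), and all 7 blood vascular markers were lower. Of 6 genes that mark both kinds of endothelium, 5 were lower in LECs (251 to 274 against 165 to 183). Markers of other cells were also measured: 4 of 7 leukocyte genes were lower in LECs and 1 was higher, with a summed level of 79.5 to 85.4 in VECs and 68.2 to 72.9 in LECs. Among 4 glial and neuronal genes, 3 were higher in LECs (0.926 to 1.10 against 3.01 to 3.67), and the 2 measured erythroid genes were lower (12.3 to 29.3 against 0.357 to 1.75). Of 6 smooth muscle and fibroblast genes, Dcn (2.66) and Col1a1 (0.74) were higher in LECs and Acta2 (-0.51) and Myh11 (-0.60) lower, with a summed level of 22.4 to 29.8 in VECs and 17.5 to 20.7 in LECs. Of 3 pericyte genes, Cspg4 was lower (-0.48), with a summed level of 0.852 to 1.33 in VECs and 0.897 to 1.18 in LECs. Of 5 epithelial genes, Vil1 was lower (-2.06), Vil1 and Krt8 were well above background on all 6 arrays, Epcam and Cdh1 on 2 each and Krt20 on none, and the summed level was 0.717 to 1.26 in VECs and 0.543 to 0.723 in LECs. The part of such cells in the differences below was not tested, and in bulk samples a smaller share of cells of a type and less RNA per cell cannot be told apart. It is not stated whether replicates stem from different animals, and the p-values measure only the spread between these samples, which may be technical.

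Most of the bright noncoding RNAs differed between the groups by less than 2-fold, and the exceptions were led by Olfr1372-ps1 toward LECs and by 9030619P08Rik and AW112010 toward VECs. Of the 134 genes, 20 were higher and 54 lower in LECs, and the other 60 were without a call (limma, Benjamini-Hochberg adjusted p under 0.05 over all 33776 probes tested). In probes these were 20 higher, 60 lower and 64 without a call, so that 55.6% of the bright noncoding probes passed, against 64% of all probes tested, of which 31.2% were higher and 32.8% lower. Over 2-fold and past the test were 14 genes, 9.72% of the 144 probes, against 24.6% of all probes. The median size of the difference was 0.28 on the log2 scale, and 0.47 over all probes tested. All 144 were well above background on every array, while the 33776 include dimmer probes that were so in a single group only. These comparisons with all probes were not matched for brightness. The spread within a group was small as well, with a median SD of 0.091 over the bright noncoding probes and 0.13 over all.

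The excess of lower over higher calls depended on the scaling between arrays. The 75th percentile itself was 0.23 higher on the log2 scale on the LEC than on the VEC arrays. With it subtracted the median difference of the 144 probes was -0.17, and without scaling it was 0.056, with 30 probes higher and 28 lower. The higher share of the calls was thus 25% with scaling and 51.7% without (48.8% and 65.1% over all probes tested). Called the same way under every scaling and with the deposited log2 values were 47 of the 144 probes, 19 higher and 28 lower (48.2% of all probes tested). Of these, 39 probes, for 35 genes, also passed with the slide row as a block and with each array left out in turn. They were 27.1% of the 144, a share that was not computed over all probes tested. The smallest difference among the 39 was 0.40. Every smaller difference that passed therefore lost its call under at least 1 of these settings.

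**Figure D1:**
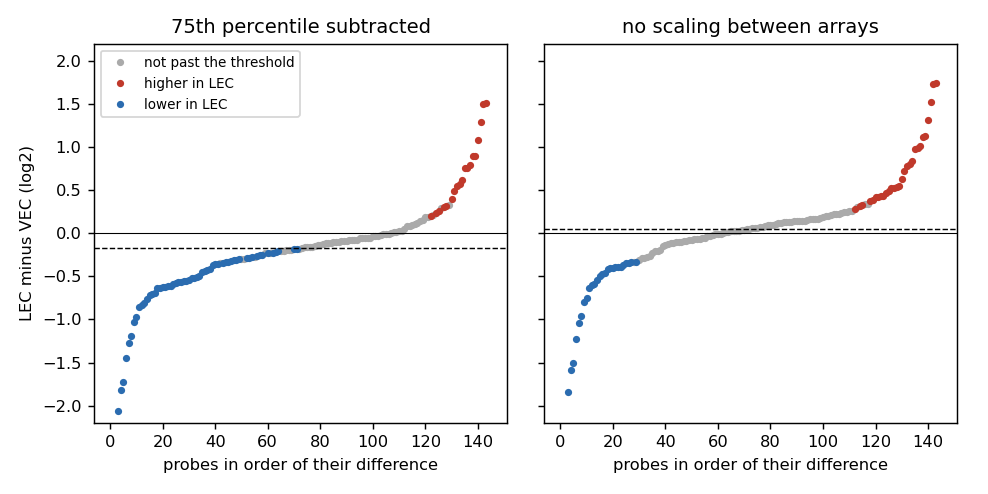
LEC minus VEC difference (log2) of the 144 bright noncoding probes in order of size, with the 75th percentile of each array subtracted (left) and with no scaling between arrays (right). Red points were higher and blue points lower in LECs by limma, gray points did not pass, and the dashed line is the median, -0.17 on the left and 0.056 on the right; Olfr1372-ps1, AW112010 and 9030619P08Rik lie outside the axis.

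The size of the difference was not even across the range of brightness. Among the 48 brightest probes, with means from 4.31 to 10.3, none differed over 2-fold and the median size was 0.20. Among the next 48 it was 0.29, with 5 probes over 2-fold, and among the 48 dimmest 0.39, with 9 over 2-fold. The bands were cut on the mean over both groups, which places an RNA bright in 1 group only in a dimmer band. Olfr1372-ps1, at 5.60 in LECs, had a mean of 2.94, and AW112010, at 5.16 in VECs, had a mean of 3.39. The bands are therefore not independent of the difference, and the same bands were not counted over all probes tested.

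**Figure D2:**
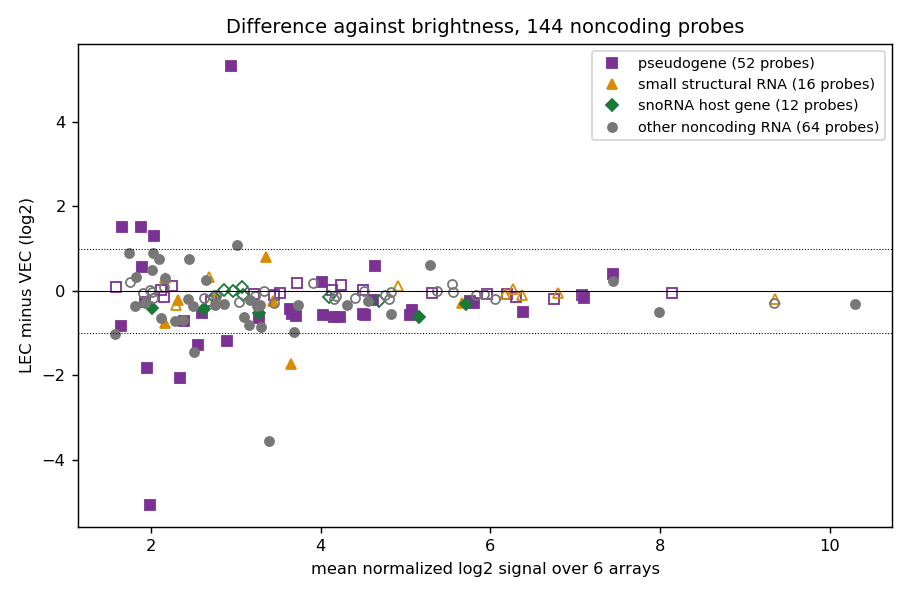
LEC minus VEC difference (log2) against the mean normalized log2 signal over the 6 arrays for the 144 bright noncoding probes, by RNA class; filled symbols passed limma's test, open ones did not, and dotted lines mark 2-fold. All probes with a mean of 4.31 or more lie between the dotted lines.

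The 10 brightest genes were an unnamed transcript that the files list as NR_003278 (mean 10.30), the ribosomal RNA gene Rn28s1 (9.36), the rodent small RNA Rn4.5s (9.34), the pseudogenes Gm6607 (8.14), H2-K2 (7.45), Gm6548 (7.10) and Gm8580 (7.08), the uncharacterised transcripts Gm20751 (7.99) and Gm20753 (7.45), and Rnu1a1 (6.80), a U1 RNA of the spliceosome. Signals of different probes depend on the probe and do not rank amounts of RNA. What kind of RNA NR_003278 is was not determined here. In LECs, 2 of these genes were higher and 3 lower, and 5 had no call. NR_003278 was at 10.46, 10.55 and 10.36 on the VEC arrays and at 10.12, 10.27 and 10.04 on the LEC arrays. Its 2 groups did not overlap, with a difference of -0.31 (standard error 0.089, adjusted p = 0.022). This call was lost without scaling between arrays (adjusted p = 0.47). It was also lost without each of VEC replicates 2 and 3 and LEC replicates 6 and 8 in turn (0.061 to 0.078). With slide rows blocked, LEC 6 alone stood against the VEC arrays, and the difference was -0.34. Resting on 1 LEC array, it does not show that the call was kept. Quantile normalization gives the same value to a probe of equal rank on all arrays. The difference of 0 that it gave for NR_003278 therefore cannot decide the call. Gm20751 was lower by 0.50 (adjusted p = 0.01), and it too did not pass without scaling (0.062). With slide rows blocked its difference was -0.49, which also rests on LEC 6 alone and does not show that the call was kept. Gm20753, higher by 0.24, passed at 0.048 and was lost with the slide row as a block (0.28) and when any 1 array was left out (0.054 to 0.14). Gm6548 (-0.18, adjusted p = 0.048) did not pass with normexp correction (0.085), quantile normalization (0.48), the median of each array subtracted (0.081), the slide row as a block (0.31) or without each of VEC replicates 2 and 3 and LEC replicates 7 and 8 in turn (0.12 to 0.15). Its sign turned to 0.046 without scaling, and that of Rn28s1 (-0.20), Gm6607 (-0.048), Gm8580 (-0.11) and Rnu1a1 (-0.055), which had no call, also turned. H2-K2 was the gene among the 10 brightest whose call was kept under all alternatives tried.

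The largest difference toward LECs was that of Olfr1372-ps1, a pseudogene of the olfactory receptor family. It was at 0.18, 0.41 and 0.26 on the VEC arrays and at 5.46, 5.65 and 5.68 on the LEC arrays. The groups lay more than 5 units apart, and no other bright noncoding gene that was higher in LECs came near this distance. The signal in LECs was 39.8 times that in VECs (log2 difference 5.31, standard error 0.094, adjusted p = 5.5e-07). A second probe of the same transcript, too dim to be among the 150, gave 5.04 (standard error 0.14, adjusted p = 1.9e-06). Of 6 tested coding genes within 200 kb, Ppp2ca (0.23) and Cdkl3 were higher in LECs, and 4 did not pass. The nearest one, the olfactory receptor gene Olfr1373, was not tested.

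Another 4 genes were over 2-fold higher in LECs. The pseudogene Marcksl1-ps4 was at 1.13, 1.18 and 0.38 in VECs and at 2.48, 2.44 and 2.34 in LECs, so that VEC replicate 4 lay apart from the other VEC arrays and the groups did not overlap (log2 difference 1.52, standard error 0.22, adjusted p = 0.0014). Slc2a4rg-ps was at 1.01, 1.16 and 1.23 in VECs and at 2.42, 2.80 and 2.69 in LECs (1.51, standard error 0.12, adjusted p = 1.1e-04), while the coding gene Zbtb46, which it overlaps, was lower by 0.95. Gm10731, a pseudogene, was higher by 1.30 (adjusted p = 6.1e-05).

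Mira, a transcript of the Hoxa cluster known for activating its neighbours Hoxa6 and Hoxa7 in differentiating stem cells, was the remaining gene over 2-fold higher. Its values were 2.56, 2.53 and 2.34 in VECs and 3.63, 3.49 and 3.57 in LECs, again without overlap (log2 difference 1.09, standard error 0.086, adjusted p = 1.1e-04). Hoxa7, the nearest coding gene, was higher by 1.09 as well (standard error 0.089, adjusted p = 1.3e-04) and Hoxa6 by 0.88 (adjusted p = 2.1e-04). The cluster did not move as one block. Of 8 tested coding genes within 200 kb of Mira that are reported here, 4 were higher in LECs (also Hoxa3, 0.40, and Hoxa9, 2.18), Hoxa4 was lower (-0.43), and 3 did not pass.

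Below 2-fold, the largest differences toward LECs were those of the uncharacterised transcripts Gm12216 (0.90, adjusted p = 1.4e-04) and Gm11961 (0.90, adjusted p = 0.0038). Norad, a long noncoding RNA that binds Pumilio proteins and guards chromosome stability, was at 4.96, 4.97 and 4.99 in VECs and at 5.59, 5.61 and 5.59 in LECs. The arrays of each group lay within 0.03 of each other, and the LEC signal was 1.54 times the VEC signal (log2 difference 0.62, standard error 0.055, adjusted p = 1.8e-04). Dimmer probes of Norad gave 0.22, 0.12 and 0.21, and none of these 3 passed (adjusted p = 0.058, 0.21 and 0.19).

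**Figure D3:**
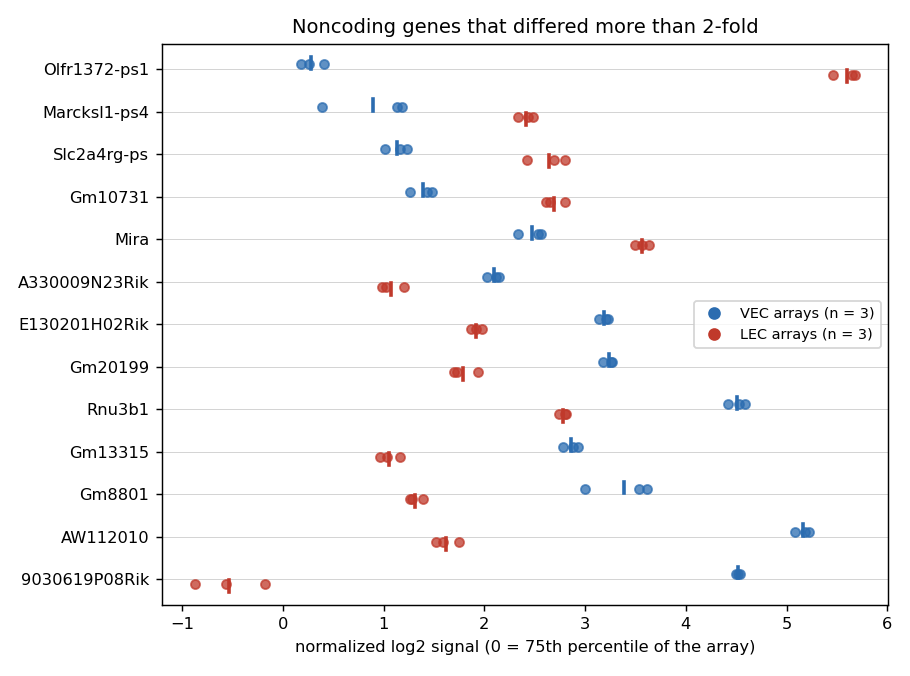
Normalized log2 signal of 13 of the 14 bright noncoding genes that passed limma's test with a difference over 2-fold, with VEC arrays in blue and LEC arrays in red (3 each); short lines are group means. The groups do not overlap for any of the 13, which their choice by test and size makes likely. In LECs 5 were higher and 8 lower, and each kept its direction and its call without scaling between arrays.

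Toward VECs, the largest difference was that of 9030619P08Rik, a pseudogene among the Ly6 genes, which encode small surface proteins anchored by a lipid. It was at 4.52, 4.50 and 4.53 in VECs and at -0.56, -0.18 and -0.87 in LECs. The VEC arrays were within 0.04 of each other, the LEC arrays spread more widely, and the gene was 33.3-fold lower in LECs (log2 difference -5.06, standard error 0.17, adjusted p = 3.7e-06). Of 4 tested coding genes within 200 kb, its relative Ly6f was lower by 6.07, with a signal well above background on 1 LEC array, whereas Gpihbp1, which carries lipoprotein lipase to the capillary wall, was higher by 2.22, as were Ly6h and Zfp41. The blood vascular marker Ly6c1, another member of this family, was lower by 4.91. Whether the probe of 9030619P08Rik also reads RNA of its relatives was not tested.

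AW112010, a mouse transcript known for its induction by interferon and bacterial products in immune cells, was at 5.18, 5.22 and 5.08 in VECs and at 1.52, 1.75 and 1.59 in LECs. All VEC arrays were far above all LEC arrays, an 11.7-fold difference (log2 difference -3.55, standard error 0.086, adjusted p = 1.1e-06). The summed level of the leukocyte markers was 79.5 to 85.4 in VECs and 68.2 to 72.9 in LECs. Itgam was by far the brightest of them (6.28 in VECs and 6.06 in LECs). Differences of the tested markers ran from -1.16 (Cd68) to 2.16 (Lyz2). The part of leukocytes in the difference of AW112010 was not tested. Within 200 kb, Slc15a3 and Tmem132a were lower in LECs by 1.62 and 1.21, and the other 4 tested coding genes did not pass. The nearest one, Ms4a8a, was not tested.

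The other genes over 2-fold lower were of several kinds. The pseudogenes Gm8801, Gm13315 and E130201H02Rik were lower by 2.07, 1.81 and 1.27. Rnu3b1, described with the small RNAs below, was lower by 1.73. Gm20199 was at 3.18, 3.27 and 3.26 in VECs and at 1.70, 1.73 and 1.94 in LECs (-1.45, adjusted p = 3.2e-05), and Arih1, a ubiquitin ligase gene that it overlaps, was lower by 1.25. A330009N23Rik was lower by 1.03 and Grasp, which it overlaps, by 1.62. Just below 2-fold, 2810025M15Rik was lower by 0.98 (adjusted p = 1.2e-04), beside its overlapping gene Rasal2 with 1.91. Gm8801 had 1 array apart from its group, VEC replicate 4 at 3.00 against 3.53 and 3.61, and the LEC arrays at 1.39, 1.26 and 1.28 were all lower.

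Pseudogenes were 46 of the 134 genes, with 8 higher and 19 lower in LECs and 19 without a call. A call was thus made for 58.7%, against 64% of all probes tested (31.2% higher and 32.8% lower). The median difference of the pseudogenes was -0.12 (0.10 without scaling between arrays). For 7 pseudogenes reported here, the coding gene whose symbol they carry was tested too, and in all 7 pairs the pseudogene and the coding gene differed in the same direction, in 6 of 7 without scaling between arrays. Marcksl1-ps4 (1.52) stood beside Marcksl1 (1.64), and Gpr137b-ps (0.55) beside Gpr137b (0.58). Pisd-ps1 (-0.43) stood beside the phospholipid enzyme gene Pisd (-0.37), and Pisd-ps3, which had no call (-0.087), differed most from its coding gene. In the other 3 pairs 1 gene of each pair passed: Selenok-ps1 0.15 and Selenok 0.18, Hmgb1-rs17 0.20 and Hmgb1 0.12, and Ptma-ps2 -0.23 and Ptma -0.24. Hmgb1-rs17 passed at 0.046 and was lost with the median of each array subtracted (0.088), with the slide row as a block (0.093) and when any 1 array was left out (0.065 to 0.12). Pseudogenes whose symbols name no coding gene were among those lower in LECs, such as Gm6524 (-0.83), Gm12070 (-0.58), 3000002C10Rik (-0.54) and Gm5523 (-0.49), of which the last 2 did not pass without scaling between arrays. The median gap between pseudogene and coding gene was 0.057 on the log2 scale over these 7 pairs and 0.24 over the 13 pairs whose pseudogene probe was dimmer than the 150, where 10 of 13 had the same direction. Over the 7 bright pairs, 6 coding genes in all since Pisd counts for a pair of pseudogenes, Pearson's r was 0.99 and Spearman's rho 0.90, given as a description. Pseudogene and coding gene can share the sequence a probe was made for, and the signals of both cannot be told apart without the probe sequences, which were not used here.

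**Figure D4:**
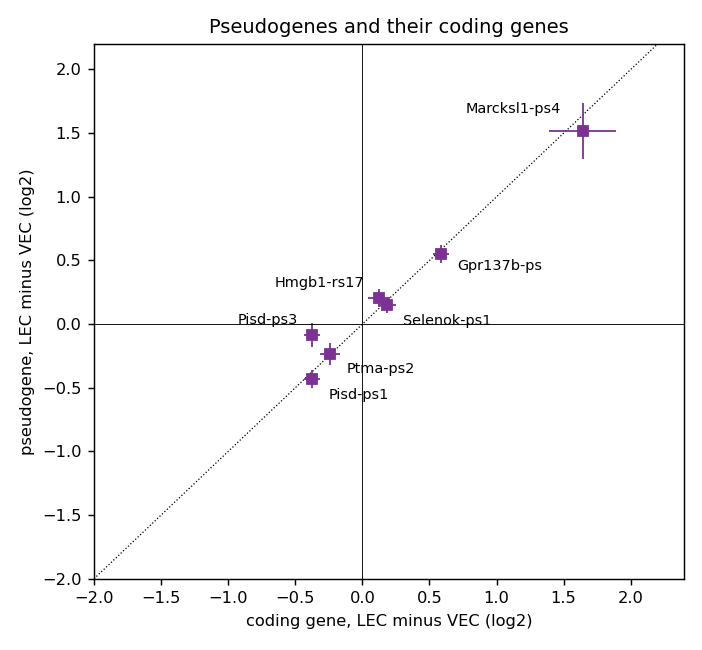
LEC minus VEC difference (log2) of 7 bright pseudogenes against that of the coding gene whose symbol they carry, with standard errors from limma; the dotted line marks equal differences. The points lie near the line from Pisd-ps1 (-0.43 against -0.37) to Marcksl1-ps4 (1.52 against 1.64), and without scaling between arrays 1 pair, Pisd-ps3 and Pisd, had opposite signs.

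The major histocompatibility complex gave 2 bright pseudogenes, both higher in LECs. Class I genes of this complex present peptides to T cells, and their sequences are close to one another. H2-Q5 was at 4.36, 4.43 and 4.27 in VECs and at 4.96, 4.94 and 4.89 in LECs (0.58, adjusted p = 6.4e-04). H2-K2 was at 7.25, 7.31 and 7.18 in VECs and at 7.59, 7.71 and 7.65 in LECs (0.40, adjusted p = 0.0029). Neither overlapped between groups, and both passed without scaling between arrays, with the slide row as a block and with each array left out. Of the class I genes nearby, H2-K1 was higher by 0.31, H2-Q7 by 0.49 and H2-Q10 by 0.57, while H2-Q4 did not pass (-0.21, adjusted p = 0.056).

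Among the 122 genes with a symbol, the class of snoRNA host genes had 11 members. All 11 hold at least 1 annotated snoRNA within their bounds. Examples are Snora24 in Snhg8, Snord1a, Snord1b and Snord1c in Snhg16, and Snora16a, Snora44, Snora61 and Snord99 in Snhg12. The 12 unnamed transcripts could not be classed by symbol, so a host gene among them would be missing from these counts. In LECs, 5 genes of this class were lower (Snhg5, Snhg7, Snhg8, Snhg12 and Snhg16), 6 had no call and 0 were higher by limma. A call was thus made for 45.5%, against 64% of all probes tested (31.2% higher and 32.8% lower). At an unadjusted p under 0.05 and by the one-way test 0 were higher as well. The median difference was -0.23, and -0.0065 without scaling between arrays. Snhg8 was at 5.52, 5.61 and 5.29 in VECs and at 4.94, 4.81 and 4.82 in LECs. The groups did not overlap, and it was the host gene whose call (-0.62, standard error 0.10, adjusted p = 0.0025) was kept without scaling (-0.39, adjusted p = 0.029). Snhg12 (-0.52), Snhg5 (-0.43), Snhg16 (-0.42) and Snhg7 (-0.30) had adjusted p-values of 0.0043, 0.0071, 0.0023 and 0.042 and did not pass without scaling (0.064, 0.18, 0.20 and 0.66). The call of Snhg7 was also lost with quantile normalization (0.21) and without each of VEC replicates 2 and 3 and LEC replicates 6 and 7 in turn (0.094 to 0.13). The other 6 lay between -0.23 (Snhg15) and 0.083 (2410006H16Rik).

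**Figure D5:**
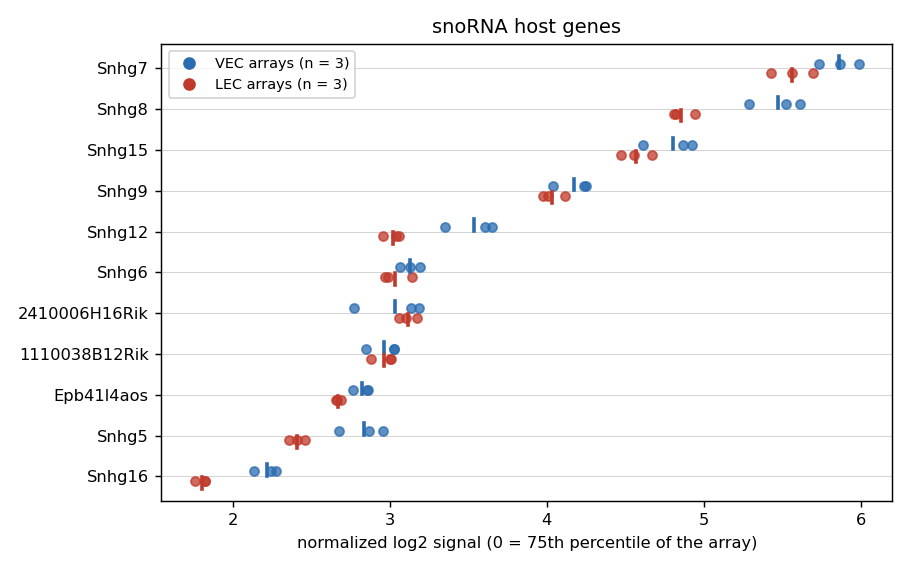
Normalized log2 signal of the 11 snoRNA host genes with a symbol, with VEC arrays in blue and LEC arrays in red (3 each). Short lines are group means. Snhg5, Snhg7, Snhg8, Snhg12 and Snhg16 passed limma's test as lower in LECs, and Snhg8 alone of these also passed without scaling between arrays.

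Host genes of snoRNAs, like genes of ribosomal proteins, are known for starting transcription within a stretch of C and T. The promoters of 9 of the 11 hosts were in the RefSeq promoter set of GRCm38.p6, and the bases around their annotated starts are shown to let this feature be compared with the differences above. Each line runs from 30 bases before the start to 30 from it on, and capitals mark an unbroken run of at least 7 letters that are all C or T and that reaches into the 10 bases on either side of the start.
Snhg8 (chr3:123508307-123508366, minus strand): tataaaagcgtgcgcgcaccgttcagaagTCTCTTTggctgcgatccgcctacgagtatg
Snhg12 (chr4:132308648-132308707, plus strand): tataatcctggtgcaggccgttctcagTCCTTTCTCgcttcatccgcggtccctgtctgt
Snhg5 (chr9:88522868-88522927, minus strand): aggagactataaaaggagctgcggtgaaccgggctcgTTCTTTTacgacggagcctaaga
Snhg16 (chr11:116671630-116671689, plus strand): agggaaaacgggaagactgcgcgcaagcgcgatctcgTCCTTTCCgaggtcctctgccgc
Snhg7 (chr2:26640215-26640274, minus strand): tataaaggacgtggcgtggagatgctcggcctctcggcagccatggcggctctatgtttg
2410006H16Rik (chr11:62602847-62602906, plus strand): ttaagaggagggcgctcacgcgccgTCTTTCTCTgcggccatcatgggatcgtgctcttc
Snhg9 (chr17:24719936-24719995, minus strand): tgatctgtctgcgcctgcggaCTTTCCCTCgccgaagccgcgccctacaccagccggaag
1110038B12Rik (chr17:34952442-34952501, minus strand): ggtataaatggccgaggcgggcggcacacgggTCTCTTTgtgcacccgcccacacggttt
Snhg15 (chr11:6528731-6528790, minus strand): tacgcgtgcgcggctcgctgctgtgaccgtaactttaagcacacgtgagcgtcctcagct
Such a run, read on the strand of the gene, was present at the start of 7 of these 9 genes and in 19.7% of all 32851 promoters of the set, and in 16 of the 47 bright noncoding genes with a promoter there. It did not separate lower hosts from the rest: Snhg8, Snhg12, Snhg5 and Snhg16 had it and Snhg7 did not, and of the hosts without a call 2410006H16Rik, Snhg9 and 1110038B12Rik had it and Snhg15 did not.

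Small structural RNAs with a symbol gave 16 genes. In LECs 1 of them was higher and 5 were lower, and 10 had no call (37.5% called, against 64% of all probes tested). The labelling kit amplifies messenger RNA from its poly(A) tail, which most of these RNAs lack, so the signals are not read as their amounts. Rnu3b1, a U3 RNA that helps to cut the ribosomal RNA precursor, was at 4.53, 4.58 and 4.42 in VECs and at 2.80, 2.81 and 2.74 in LECs. The groups were far apart, and it was 3.31-fold lower in LECs (log2 difference -1.73, standard error 0.069, adjusted p = 6.7e-06). Rnu2-10, a U2 RNA of the spliceosome, was lower by 0.76 (adjusted p = 0.0028), and its nearest coding gene Arl4d by 5.11. The U1 RNAs Rnu1a1, Rnu1b1 and Rnu1b6 had no call (-0.055, -0.084 and -0.10). Rnu12 of the minor spliceosome (-0.23), Rn7sk, which holds back the elongation factor P-TEFb (-0.29), and Snora81 (-0.21) were lower with scaling between arrays and had no call without it, where Snora81 was at 0.019. With the slide row as a block Rnu12 (adjusted p = 0.11) and Rn7sk (0.24) did not pass, Rn7sk did not pass with quantile normalization (0.16) or the median subtracted (0.055), and Snora81 did not pass with quantile normalization (0.054). Rnu12 was lost without VEC replicate 3 or LEC replicate 8 (0.063 and 0.064), Rn7sk when any array but VEC replicate 4 was left out (0.060 to 0.12), and Snora81 when any 1 array was left out (0.057 to 0.15).

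The small RNA that was higher in LECs was Snora34, at 2.97, 3.13 and 2.80 in VECs and at 3.64, 4.05 and 3.58 in LECs (0.79, standard error 0.15, adjusted p = 0.0048). With the slide row as a block it did not pass (adjusted p = 0.058). Snora34 lies within Kansl2, a coding gene that was higher by 0.35. Another 3 bright snoRNAs lie within coding genes. Snord17 had a difference of 0.33 (no call) within Snx5, which was higher by 0.89. Snora81 lies within Eif4a2 (-0.098, no call) and Snord33 (-0.16, no call) within Rpl13a, which was lower by 0.24. Without scaling between arrays the sign of Snord33 turned (0.064).

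Of the imprinted loci, Peg13 and Kcnq1ot1 were bright. Peg13, made from the paternal chromosome within Trappc9, was at 5.14, 5.15 and 5.04 in VECs and at 4.61, 4.58 and 4.45 in LECs. It was lower in LECs without overlap (-0.56, standard error 0.073, adjusted p = 9.2e-04), also without scaling between arrays (-0.33, adjusted p = 0.032), while Trappc9 was higher by 0.63 (adjusted p = 3.2e-04). Kcnq1ot1, a paternal antisense transcript that silences genes around Kcnq1, was at 4.75, 4.88 and 4.91 in VECs and at 4.58, 4.84 and 5.02 in LECs. These ranges overlap, and neither of its bright probes passed (-0.035 and -0.0055). The coding gene Kcnq1, a potassium channel gene, was lower by 5.15 on the same arrays (adjusted p = 5.5e-07), as were 3 others of 6 tested within 200 kb, Cd81, Tssc4 and Slc22a18, while Cdkn1c, a known target, had no call (0.19). Dimmer probes of Kcnq1ot1 went opposite ways, with -0.61 and 0.53 (adjusted p = 0.027 and 0.016).

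The genes of no other class, which were long noncoding RNAs, unnamed transcripts and the small RNA Rn4.5s, were 57. The unnamed transcripts had neither symbol nor biotype here, so some may belong to the classes above. In LECs 11 were higher and 23 lower, and 23 had no call (59.6% called, against 64% of all probes tested). Beside those already described, 9530082P21Rik (0.76) and the unnamed NR_015476 (0.76) and NR_024619 (0.49) were higher, and 1110006O24Rik (-0.86), Gdap10 (-0.81), NR_105032 (-0.70), 2310010J17Rik (-0.69) and Gm11240 (-0.63) were lower, all with the same call without scaling between arrays. With the slide row as a block 1110006O24Rik, NR_105032 and 2310010J17Rik did not pass (adjusted p = 0.0646, 0.0695 and 0.0567). Gt(ROSA)26Sor, the locus used for transgenes because it is active in nearly all tissues, was lower by 0.62 (adjusted p = 0.0021), and of its dimmer probes 1 was lower (-1.22) and 1 did not pass (0.85, adjusted p = 0.055). Bvht, known for its role in the heart lineage, was lower by 0.33 and Lncpint, a target of p53, by 0.34, with adjusted p-values of 0.01 and 0.025 that were 0.51 and 0.53 without scaling between arrays. Bvht did not pass with the slide row as a block either (0.10). Lncpint also lost its call without each of VEC replicates 3 and 4 and LEC replicates 6 and 7 in turn (0.061 to 0.072). Chaserr, which holds down its neighbour Chd2, did not pass (-0.030), and Chd2 was higher by 0.31. The class of antisense transcripts had 2 genes. The bright probe of Ttc39aos1 did not pass (-0.28). A dimmer probe of it, well above background on 3 arrays, was higher in LECs (3.49, adjusted p = 7.7e-04). Ttc39a, the coding gene it overlaps, was higher by 2.98. Hk1os was lower by 0.18 (adjusted p = 0.033) and Hk1, the hexokinase gene it overlaps, by 0.82, but Hk1os was at 0.043 without scaling between arrays and was lost with normexp correction (0.052), the median subtracted (0.052), the slide row as a block (0.15) and when any array but VEC replicate 4 was left out (0.063 to 0.12).

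D7Ertd143e spans the microRNA cluster known from embryonic stem cells, and its sequences show why the cluster is treated as a family. The probe of D7Ertd143e was at 1.97, 2.07 and 1.95 in VECs and at 1.48, 1.66 and 1.78 in LECs. It was lower in LECs by 0.36 (adjusted p = 0.017), but not without scaling between arrays (-0.13, adjusted p = 0.40) or without VEC replicate 3 (0.064). RefSeq places 13 mature microRNAs within its bounds on chromosome 7 of GRCm38.p6, and those that share a seed, bases 2 to 8 in capitals, with another one there are listed by seed. Both mature forms of miR-292b lie on the minus strand and all the others on the plus strand. The seed shared by miR-292b-5p and miR-294-5p is thus found on opposite strands. The microRNAs themselves were not measured by these probes.
miR-291a-3p: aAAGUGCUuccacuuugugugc
miR-294-3p: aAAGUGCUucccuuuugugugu
miR-295-3p: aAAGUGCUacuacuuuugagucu
miR-291a-5p: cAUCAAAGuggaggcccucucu
miR-291b-5p: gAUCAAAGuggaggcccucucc
miR-292a-5p: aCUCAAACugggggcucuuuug
miR-293-5p: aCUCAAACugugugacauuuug
miR-292b-5p: aCUCAAAAccuggcggcacuuuu
miR-294-5p: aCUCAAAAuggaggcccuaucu
The first seed is carried by 3 mature microRNAs of this cluster and by 5 of the 1679 mature names in the RefSeq set.

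Neighbouring coding genes showed no common direction with the bright noncoding genes. A coding gene lay within 50 kb of 107 of them, and it was tested for 85. Both genes of a pair passed in 33 pairs, of which 18 had the same direction and 15 opposite directions. Across the 85 pairs Pearson's r was 0.12 and Spearman's rho 0.18, as a description over genes that share the same 6 arrays. For the 38 tested pairs that overlap in the annotation they were 0.032 and 0.088. Some of the largest contrasts were those of a small noncoding difference beside a large coding one: Snhg16 at -0.42 with St6galnac2 at -4.54, Rnu2-10 with Arl4d, and Kcnq1ot1 with Kcnq1.

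For 8 genes more than 1 probe was among the bright ones, and the probes of a gene share their target and are no replicates. Their differences lay within 0.016 to 0.25 of each other, and no gene had probes called in opposite directions. The 3 probes of the pseudogene Gm5069 gave -0.64 to -0.52, the 3 of Gm6981 -0.62 to -0.56 and the 2 of Gm8709 -0.72 and -0.57, all lower in LECs. The widest range was that of Snhg15, with -0.23 and 0.018, neither of which passed. Of the 2 probes of Gm8580, the brighter had no call (-0.11) and the dimmer was lower (-0.22, adjusted p = 0.047 by limma). That call was lost when any array but VEC replicate 4 was left out (0.067 to 0.15).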

How the data were processed

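RNA of VECs and LECs sorted from small intestine was hybridized to one-color Agilent arrays. The authors deposited the intensity of each spot, background-subtracted by Agilent Feature Extraction 12.0.3.1 and not scaled between arrays, and a table of log2 values, which equalled the log2 intensity less 1 constant per array. The intensities were set on the log2 scale, without outlier spots and with the mean over spots of 1 probe, and each array's 75th percentile was taken off. A probe entered the test where a whole group, all 3 arrays, was well above background. LECs and VECs were compared by limma 3.58.1 (R 4.3.3, lmFit, then eBayes, two-sided, Benjamini-Hochberg over 33776 probes, threshold 0.05). The fit was checked on simulated data with known changes. It recovered 12 of 50 changes of 0.5 on the log2 scale, 44 of 50 of 1, 46 of 50 of 2 and 48 of 50 of 4. Of its 159 calls, 9 were false. Far fewer probes changed in the simulation than were called in the data, so its recovery does not carry over directly. All arrays were on 1 slide with 1 scan, VEC 2, 3 and 4 and LEC 6 in row 1 and LEC 7 and 8 in row 2, so that within row 1 LEC 6 stands alone.

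Probes were named through RefSeq accessions of GRCm38.p6, which named 32994 of 56605 probes, and 122 of the 134 genes. The arrays' own design names another build, so the annotation served for names, neighbours and RefSeq sequences only. A gene was represented by its brightest member probe. Classes came from symbols and RefSeq biotypes, so the 12 unnamed transcripts were counted with the genes of no other class. The members, classes and lists were chosen with earlier results of these data known. Named were the 10 brightest genes, the 8 largest differences per direction, every called snoRNA host and imprinted gene, up to 3 genes per direction in the other classes, and their nearest coding neighbours; 1 gene over 2-fold lower and 1 coding neighbour are not reported here. Other genes, the pairs of pseudogene and coding gene, the 200 kb windows and the sequences were chosen after values were seen. Alternatives were normexp correction (offset 50, on median signals, since mean signals were not among the columns used here), quantile, median or no scaling, no or a stricter filter on dim probes, inclusion of outlier spots, limma with an intensity trend, the one-way test of the methods, the log2 table as input, the slide row as a block, each replicate left out, other thresholds and other numbers of probes.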

Additional observations from a re-analysis of the deposited data

How the results depend on the processing

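Direction and number of calls held within 1.5 times for most settings, with the exceptions given here. Without scaling between arrays, 28 probes and 24 genes were lower in LECs, against 60 and 54, and the median difference of the 144 probes turned from -0.17 to 0.056; with quantile normalization it was -0.10. The counts follow the number of probes taken: among the 100 brightest, 9 probes and 9 genes were higher and 39 probes and 35 genes lower, and among the 300 brightest 71 probes and 67 genes were higher and 104 probes and 97 genes lower. With a fold over 2 as well, 5 probes and genes were higher and 9 lower. With each replicate left out in turn, 17 to 20 probes and genes were higher, 44 to 63 probes and 39 to 57 genes lower, and the median was -0.21 to -0.15. With the slide row as a block 17 genes were higher and 38 lower, and with the methods' one-way test 20 and 50.

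Among the named genes the sign turned for Rn28s1 (0.015 with quantile normalization, 0.028 without scaling), Gm6607 (0.0018 with normexp correction, 0.12 with quantile normalization, 0.18 without scaling), Gm8580 (0.030 and 0.12 in the latter 2), Rnu1a1 (0.076 and 0.17, and from -0.13 to 0.027 with LEC replicate 7 or 8 left out), Gm6548 (0.046 without scaling) and Hk1os (0.043 without scaling). Without scaling, each of these moved by the 0.23 by which the 75th percentiles differ. For the other settings the cause was not tested. No paired analysis was made. VEC 2, 3 and 4 and LEC 6, 7 and 8 share no replicate number, and whether they came from the same cell preparations is not stated. The arrays carry no read depth; signals of 12.1 to 25.1 intensity units, depending on the array, were the dimmest above background, and all 144 probes lay above them.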
